A study of Mus musculus with 24 samples.

Results

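The 9 genes described here, Dbp, Tef, Hlf, Nfil3, Nr1d1, Nr1d2, Bhlhe40, Bhlhe41 and Ciart, encode transcriptional regulators that sit downstream of the circadian clock or feed back on it. They were taken by name from the 41388 genes counted in the series. In background, the core activator pair of CLOCK and BMAL1 (gene Arntl) binds E-boxes and drives its own repressors, the PER and CRY proteins. A second, stabilising loop is made by the nuclear receptors REV-ERBα and REV-ERBβ (Nr1d1 and Nr1d2), which repress Arntl, and output factors such as DBP and NFIL3 pass the rhythm on to other genes through D-boxes. Fat tissue has a clock of this kind, and glucocorticoids are among the hormones known to act on clocks outside the brain.

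Total RNA of inguinal fat, a subcutaneous white depot, was sequenced from male mice. Both genotypes were floxed at Nr3c2, which encodes the mineralocorticoid receptor. FMRKO mice also carried Adipoq-Cre, in which the adiponectin promoter drives Cre in fat cells, and control mice were the floxed mice without a Cre named in the labels. The 6 groups, each of 4 libraries, were FMRKO and control mice treated with corticosterone, FMRKO and control mice on a high-fat diet, and FMRKO and control mice on chow. A whole pad was sampled, so cells that do not make adiponectin keep the receptor and contribute RNA in both genotypes, and in such bulk samples fewer cells of a type and less RNA per cell cannot be told apart. The sources used here do not give the corticosterone dose, the length of either treatment, a vehicle group, the ages or the time of day of collection, on which the levels of clock genes depend. Nothing in the labels says that each library was a separate mouse, so the spread behind each p-value may be technical.

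Library totals ran from 17925109 to 40427675 counts. The 8 adipocyte markers summed to between 14024 and 35677 CPM (the count scaled by library size) in every library and none was at 0 in any group. The glucocorticoid-responsive gene Fkbp5 averaged 409.5 CPM in corticosterone FMRKO libraries and 274 CPM in corticosterone control libraries, against 99.2 CPM in chow FMRKO and 116.5 CPM in chow control libraries. Of 4 glucocorticoid-responsive genes, Fkbp5 and Tsc22d3 were called higher with corticosterone in both genotypes, while Klf9 (0.45 in FMRKO and -0.05 in control mice) and Zbtb16 (0.70 in FMRKO and 0.31 in control mice) did not pass. The targeted gene Nr3c2 was lower in FMRKO libraries in each condition, by log2 fold changes of -0.66 ± 0.20 with corticosterone, -0.52 ± 0.20 on high-fat diet and -0.29 ± 0.20 on chow (SE), and none of these passed edgeR's test after adjustment. In 6 libraries the 11 lymph node markers found averaged 4.63 to 6.44 log2(CPM + 1), against 1.12 to 3.23 in the other 18. They were replicates 1 and 4 of both high-fat groups and replicates 1 and 3 of the chow FMRKO group. Skeletal muscle markers summed to 1904 CPM in corticosterone control 2, 337 CPM in high-fat control 3 and 13545 CPM in chow FMRKO 5, and to 7.91 to 76.1 CPM in the other libraries. Erythrocyte markers summed to 1905 to 2934 CPM in corticosterone libraries, 529 to 1990 CPM in high-fat libraries and 355 to 756 CPM in chow libraries. Endothelial markers summed to 351 to 469 CPM with corticosterone, 521 to 850.4 CPM on high-fat diet and 447 to 697 CPM on chow. Preadipocyte markers summed to 776 to 1867 CPM in corticosterone libraries, 1579 to 2900 CPM in high-fat libraries and 1731 to 8069 CPM in chow libraries. The part of these lists in the results below was not tested, except where values with and without libraries are given. The titles of 8 of 8 chow libraries and 0 of the other 16 carry a leading number, so a batch of that form, if there was one, cannot be told apart from either treatment in a comparison with chow.

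Most of these factors were lower than on chow under both treatments, and Nfil3 was the one factor that was higher. With corticosterone, 8 of 9 members were lower and 1 was higher than on chow in FMRKO mice (edgeR's quasi-likelihood test, adjusted p under 0.05), where 20.9% of all 19717 genes tested were called lower and 20.2% higher. In control mice 7 were lower and 1 was higher, where 22.7% of all genes were called lower and 20.2% higher. On high-fat diet, 7 members were lower and 0 higher than on chow in FMRKO mice, where 9.18% of all genes were called lower and 15.2% higher. In control mice 7 were lower and 1 was higher, where 13.9% of all genes were called lower and 15.3% higher. Libraries of the groups compared did not overlap for 7 members lower and 1 higher with corticosterone in FMRKO mice, as for 17.2% and 20.2% of all genes, and for 6 lower and 1 higher in control mice, as for 22.2% and 19.7%. On high-fat diet they did not overlap for 7 lower and 0 higher in FMRKO mice, as for 8.88% and 13.5% of all genes, and for 4 lower and 0 higher in control mice, as for 11.7% and 11.5%. The median log2 fold change of the 9 members was -1.10 with corticosterone in FMRKO mice and -1.03 in control mice, where the medians of all genes were -0.11 and -0.12. With the diet it was -0.99 in FMRKO mice and -0.77 in control mice, where the medians of all genes were -0.06 and 0.01. The corticosterone and high-fat comparisons of one genotype share their chow libraries, so their values are given side by side and not counted as separate evidence.

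The split of calls over all genes depended on the scaling, while that of the members moved by at most 1 call. With library totals in place of TMM factors, the calls against chow were 2409 higher and 6567 lower with corticosterone in FMRKO mice (3989 and 4113 with TMM) and 2564 and 6229 in control mice (3986 and 4467 with TMM). On high-fat diet they were 1400 higher and 5187 lower in FMRKO mice (3002 and 1811 with TMM) and 1743 and 4808 in control mice (3013 and 2745 with TMM). The median of all genes then stood at -0.35 with corticosterone in FMRKO mice and -0.32 in control mice, and at -0.35 on high-fat diet in FMRKO mice and -0.18 in control mice, and every member called with TMM was called in the same direction.

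**Figure D1:**
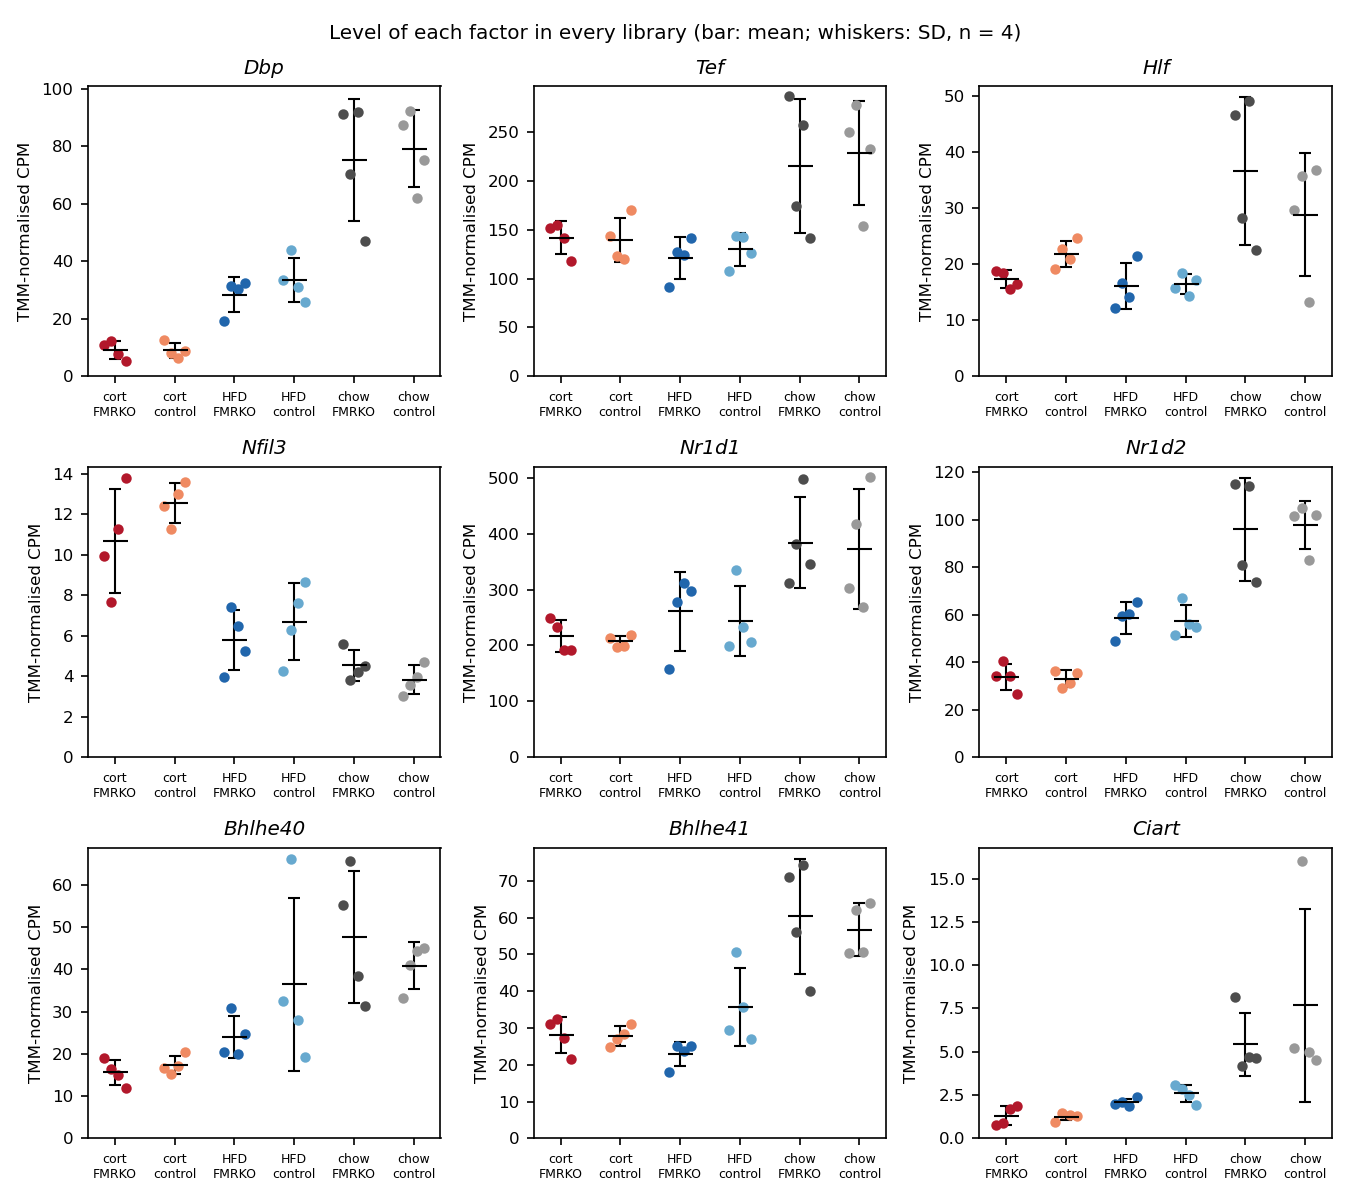
TMM-normalised CPM of the 9 factors (linear vertical axes from 0) in each of 24 libraries, by group; points are libraries, bars are means and whiskers SD (n = 4). Dbp, Nr1d2 and Ciart form 3 steps with no overlap between corticosterone, high-fat diet and chow libraries, and Nfil3 runs the other way. The share of all genes with such steps is not given.

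Among the activators of the PAR bZIP family, which bind D-boxes, Dbp changed most. Dbp, the D-box binding protein whose own transcription is under direct E-box control, lies at chr7:45705088-45710155 on the plus strand (GRCm38, GENCODE annotation, as for all positions below). It had 5.30, 7.64, 12.4 and 10.8 CPM (replicates 1 to 4) in corticosterone FMRKO libraries and 8.85, 6.48, 8.17 and 12.7 CPM in corticosterone control libraries. It had 32.5, 30.4, 31.3 and 19.3 CPM in high-fat FMRKO libraries and 25.7, 30.9, 44.0 and 33.4 CPM in high-fat control libraries. On chow it had 46.9, 91.8, 70.4 and 91.2 CPM in FMRKO libraries (replicates 1, 2, 3 and 5) and 75.0, 62.0, 92.1 and 87.3 CPM in control libraries (replicates 1, 2, 4 and 5). All 8 corticosterone libraries lay below all 8 high-fat libraries, and all of those below all 8 chow libraries, while the genotypes overlapped within each condition. The share of all genes with this order of the conditions is not given, so the order is not read as particular to a member. The mean level with corticosterone was 8.27-fold below chow in FMRKO mice, a log2 fold change of -3.05 ± 0.28 (adjusted p = 1.4e-07), and 8.77-fold below it in control mice, -3.13 ± 0.28 (adjusted p = 7.9e-08). On high-fat diet the log2 fold change was -1.404 ± 0.26 in FMRKO mice (adjusted p = 0.00053) and -1.24 ± 0.26 in control mice (adjusted p = 0.001). Between the treatments themselves, Dbp was lower with corticosterone than on high-fat diet by -1.64 ± 0.27 in FMRKO mice (adjusted p = 0.00024) and -1.89 ± 0.27 in control mice (adjusted p = 4.6e-05). Of the counted length of Dbp, 491 bases (16.7%) overlap exons of Sphk2 on the opposite strand, and since the strand setting is not given, reads there cannot be told apart.

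Tef, a close relative of Dbp that binds the same element, lies at chr15:81802421-81826861 on the plus strand. It had 118, 142, 155 and 152 CPM in corticosterone FMRKO libraries, 141.7, 124, 128 and 91.5 CPM in high-fat FMRKO libraries and 141.9, 257, 175 and 287 CPM in chow FMRKO libraries. The control libraries had 170.2, 120.4, 124 and 144 CPM with corticosterone, 126, 143, 144 and 108 CPM on high-fat diet and 233, 154, 277 and 250.3 CPM on chow. The high-fat libraries lay below the chow libraries of their genotype, and the corticosterone libraries overlapped them. Tef fell by 0.83 ± 0.20 on the log2 scale on high-fat diet in FMRKO mice (adjusted p = 0.005) and by 0.81 ± 0.20 in control mice (adjusted p = 0.005). With corticosterone it fell by 0.60 ± 0.20 in FMRKO mice (adjusted p = 0.022) and by 0.71 ± 0.20 in control mice (adjusted p = 0.008). In FMRKO mice that difference was not called without the muscle-marker libraries (-0.45, adjusted p = 0.078), without chow FMRKO 2 (0.069) or 5 (0.102) and without corticosterone FMRKO 1 (0.051). The high-fat control call did not hold without the lymph node and muscle libraries together, where the value was -0.66. That setting leaves a single high-fat control library. Corticosterone against high-fat diet gave 0.23 ± 0.20 in FMRKO mice and 0.10 ± 0.20 in control mice, neither past the threshold, with 95% intervals of -0.19 to 0.65 and -0.32 to 0.52.

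Hlf, the third PAR bZIP factor (chr11:90336536-90390895, minus strand), spread widely on chow, with 22.6, 49.2, 28.3 and 46.7 CPM in FMRKO libraries and 36.8, 13.2, 35.8 and 29.7 CPM in control libraries. With corticosterone it had 16.5, 15.5, 18.5 and 18.8 CPM in FMRKO libraries and 24.7, 20.9, 22.7 and 19.2 CPM in control libraries. High-fat libraries had 21.5, 14.1, 16.7 and 12.2 CPM in FMRKO mice and 17.2, 14.3, 18.4 and 15.8 CPM in control mice. Both treated FMRKO groups lay below chow FMRKO without overlap, whereas chow control 2 lay below every treated control library. In FMRKO mice Hlf fell by 1.08 ± 0.26 with corticosterone (adjusted p = 0.003) and by 1.18 ± 0.26 on high-fat diet (adjusted p = 0.002). In control mice it fell by 0.81 ± 0.26 on high-fat diet (adjusted p = 0.024), and the corticosterone value was -0.40 ± 0.26 (adjusted p = 0.22). On high-fat diet the control difference was not called in 8 of 36 alternatives, among them leaving out chow control 1 (adjusted p = 0.074), chow control 4 (0.077) or high-fat control 2 (0.050), and the corticosterone control value passed without chow control 2 (-0.60, adjusted p = 0.027). The adipocyte list, summed, reached 17355 to 32165 CPM in chow FMRKO libraries and 15096 to 25482 CPM in high-fat FMRKO libraries. Its mean log2(CPM + 1) ran the other way, at 9.8 to 10.63 in chow FMRKO and 10.19 to 10.96 in high-fat FMRKO libraries. The part of this list in the result was not tested.

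Nfil3 (E4BP4) occupies the same D-boxes as Dbp, Tef and Hlf and represses from them. The gene spans chr13:52967209-52981073 on the minus strand. It was the one member that was higher under treatment. With corticosterone it had 13.8, 11.3, 7.67 and 9.96 CPM in FMRKO libraries and 13.6, 13.0, 11.3 and 12.4 CPM in control libraries. In high-fat libraries it had 5.24, 6.49, 7.43 and 3.99 CPM in FMRKO mice and 8.68, 7.60, 6.29 and 4.26 CPM in control mice, and on chow 4.49, 4.21, 3.82 and 5.62 CPM in FMRKO libraries and 4.72, 3.98, 3.59 and 3.04 CPM in control libraries. Every corticosterone library lay above every chow library, while the high-fat libraries overlapped chow in both genotypes. Against chow, Nfil3 rose with corticosterone by 1.24 ± 0.22 in FMRKO mice (adjusted p = 0.0002) and by 1.71 ± 0.22 in control mice (adjusted p = 6.2e-06). On high-fat diet it rose by 0.80 ± 0.22 in control mice (adjusted p = 0.01), and the FMRKO value was 0.35 ± 0.22 (adjusted p = 0.271). The difference between these high-fat effects, -0.45 ± 0.31, did not pass (adjusted p = 0.618, interaction term). Corticosterone against high-fat diet gave 0.89 ± 0.22 in FMRKO mice (adjusted p = 0.008) and 0.91 ± 0.22 in control mice (adjusted p = 0.005). When the lymph node libraries were left out the FMRKO value was 0.65 (adjusted p = 0.07), and with lymph node and muscle covariates the control value was 0.55 (adjusted p = 0.139). With 69 to 495 counts per library, Nfil3 is among the less deeply counted members.

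Because the activators and Nfil3 compete for one element, their levels per length were set against each other in each library, as RPKM (TMM-scaled CPM per kilobase of counted length). Per length, the Dbp level was between 0.263 and 1.11 times that of Nfil3 in corticosterone FMRKO libraries (median 0.606) and between 0.343 and 0.700 times in corticosterone control libraries (median 0.471). The ratio was 2.90 to 4.27 in high-fat FMRKO libraries (median 3.27) and 2.03 to 5.39 in high-fat control libraries (median 3.81), and 7.19 to 15.0 in chow FMRKO libraries (median 11.9) and 10.7 to 19.8 in chow control libraries (median 14.3). The 3 conditions did not overlap. Tef transcripts still exceeded Nfil3 in every library, with a median ratio of 3.59 in FMRKO and 2.89 in control libraries with corticosterone, 5.42 in FMRKO and 5.37 in control libraries on high-fat diet, and 12.5 in FMRKO and 16.3 in control libraries on chow. The median Hlf to Nfil3 ratio was 0.494 in FMRKO and 0.519 in control libraries with corticosterone, 0.806 in FMRKO and 0.745 in control libraries on high-fat diet, and 2.38 in FMRKO and 2.66 in control libraries on chow. These ratios describe transcripts, not protein.

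Of the stabilising loop, Nr1d2 (REV-ERBβ, chr14:18204054-18239127, minus strand) had the smallest standard errors of the 9 genes. It had 26.7, 34.3, 40.4 and 34.1 CPM in corticosterone FMRKO libraries and 35.5, 31.3, 29.2 and 36.5 CPM in corticosterone control libraries. The high-fat libraries had 65.4, 60.5, 59.7 and 49.1 CPM in FMRKO mice and 54.8, 56.0, 66.9 and 51.5 CPM in control mice, and on chow 73.9, 114, 81.1 and 115 CPM in FMRKO libraries and 102, 82.9, 105 and 102 CPM in control libraries. As for Dbp, the 3 conditions did not overlap and the genotypes did. With corticosterone against chow, Nr1d2 fell by 1.503 ± 0.15 in FMRKO mice (adjusted p = 3.1e-07) and by 1.56 ± 0.15 in control mice (adjusted p = 1.5e-07). It fell by 0.71 ± 0.14 in FMRKO mice (adjusted p = 0.001) and by 0.77 ± 0.14 in control mice on high-fat diet (adjusted p = 0.00047). Corticosterone against high-fat diet gave -0.79 ± 0.15 in FMRKO mice (adjusted p = 0.00073) and -0.79 ± 0.15 in control mice (adjusted p = 0.00059). Dbp and Nr1d2 passed in each of these 6 treatment comparisons, and none of their calls was lost under any of the 36 alternatives run for each.

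Nr1d1 (REV-ERBα, chr11:98767932-98775333, minus strand), the heme-binding repressor of Arntl, was the most abundant member per length in every group, at 67.3 to 125 RPKM on average. It had 192, 192, 232 and 249 CPM in corticosterone FMRKO libraries, 298, 311.1, 278 and 157 CPM in high-fat FMRKO libraries and 346, 497, 382 and 310.8 CPM in chow FMRKO libraries. The control libraries had 218.5, 199, 197.5 and 213 CPM with corticosterone, 206, 233, 335 and 199 CPM on high-fat diet and 502, 269, 418 and 302 CPM on chow. Corticosterone libraries lay below chow libraries without overlap and high-fat libraries did not. With corticosterone Nr1d1 fell by 0.83 ± 0.22 in FMRKO mice (adjusted p = 0.005) and by 0.85 ± 0.22 in control mice (adjusted p = 0.004). The diet effect was -0.61 ± 0.22 in control mice (adjusted p = 0.037), and the FMRKO value was -0.56 ± 0.22 (adjusted p = 0.066). Both high-fat values lay near the threshold: the control call was lost in 9 of 36 alternatives, among them leaving out chow control 1 (adjusted p = 0.142) or 4 (0.094), high-fat control 1 (0.076), 2 (0.058) or 4 (0.067), and the 6 lymph node libraries (-0.36, adjusted p = 0.281). The FMRKO value passed in 21 of 36. In 15 of these a single library was left out, mostly one outside the groups compared. Exons of Thra on the opposite strand overlap 263 bases (8.55%) of the counted length of Nr1d1.

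The basic helix-loop-helix repressors Bhlhe40 (DEC1) and Bhlhe41 (DEC2) bind E-boxes and oppose CLOCK and BMAL1 there. They lie on the plus strand at chr6:108660629-108666925 and on the minus strand at chr6:145858243-145865558. Bhlhe40 had 11.9, 15.1, 16.4 and 19.0 CPM in corticosterone FMRKO libraries, 24.7, 19.9, 30.8 and 20.4 CPM in high-fat FMRKO libraries and 31.4, 38.3, 65.6 and 55.2 CPM in chow FMRKO libraries. In control libraries it had 20.4, 17.2, 15.3 and 16.6 CPM with corticosterone, 19.2, 28.0, 66.0 and 32.6 CPM on high-fat diet and 45.0, 44.4, 41.0 and 33.1 CPM on chow. Corticosterone libraries lay below chow libraries in both genotypes, and high-fat control 3, one of the muscle-marker libraries, was the highest of all 24. Bhlhe40 fell with corticosterone by 1.61 ± 0.29 in FMRKO mice (adjusted p = 0.00019) and by 1.23 ± 0.28 in control mice (adjusted p = 0.002). On high-fat diet it fell by 0.99 ± 0.28 in FMRKO mice (adjusted p = 0.013), a call that ended when the lymph node libraries were left out (-0.86, adjusted p = 0.075) or chow FMRKO 3 was (-0.79, adjusted p = 0.059). The high-fat control value was -0.16 ± 0.28 (adjusted p = 0.685), and -0.63 without high-fat control 3 (adjusted p = 0.05, just past the threshold). Corticosterone against high-fat diet gave -1.07 ± 0.28 in control mice (adjusted p = 0.009), lost without high-fat control 3 (-0.57, adjusted p = 0.072), and -0.62 ± 0.28 in FMRKO mice (adjusted p = 0.146).

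Bhlhe41 had 21.5, 27.3, 32.5 and 31.2 CPM in corticosterone FMRKO libraries, 25.0, 23.7, 25.1 and 18 CPM in high-fat FMRKO libraries and 40.1, 74.3, 56.1 and 71.0 CPM in chow FMRKO libraries. In control libraries it had 31.1, 28.5, 27.1 and 24.7 CPM with corticosterone, 27.0, 35.6, 50.7 and 29.4 CPM on high-fat diet and 64.0, 50.6, 62.0 and 50.5 CPM on chow. Apart from high-fat control 3, every treated library lay below every chow library. Bhlhe41 fell with corticosterone by 1.10 ± 0.20 in FMRKO mice (adjusted p = 0.00019) and by 1.03 ± 0.20 in control mice (adjusted p = 0.0003). On high-fat diet it fell by 1.395 ± 0.20 in FMRKO mice (adjusted p = 3.5e-05) and by 0.67 ± 0.19 in control mice (adjusted p = 0.013), and the control value was -0.36 (adjusted p = 0.124) with the lymph node libraries left out. Corticosterone against high-fat diet gave 0.29 ± 0.19 in FMRKO mice and -0.36 ± 0.19 in control mice, and neither passed (adjusted p = 0.33 and 0.186). The control value did pass when the lymph node libraries were left out (-0.61, adjusted p = 0.018), and with lymph node and muscle covariates (-0.65, adjusted p = 0.036). Exons of Gm43909 on the opposite strand overlap 855 bases (13.7%) of its counted length.

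Ciart (CHRONO, chr3:95878503-95882251, minus strand), a repressor recruited to CLOCK and BMAL1 at E-boxes, was the least abundant member per length in the treated groups, at 0.554 to 1.15 RPKM, and had 22 to 405 counts per library. It had 1.84, 1.72, 0.911 and 0.786 CPM in corticosterone FMRKO libraries and 1.29, 1.34, 1.44 and 0.941 CPM in corticosterone control libraries. It had 2.36, 1.89, 2.07 and 1.98 CPM in high-fat FMRKO libraries and 1.93, 2.52, 2.85 and 3.10 CPM in high-fat control libraries, and on chow 4.63, 4.71, 4.20 and 8.16 CPM in FMRKO libraries and 4.53, 4.98, 16.0 and 5.20 CPM in control libraries. The 3 conditions again did not overlap, and chow control 4 was the highest library. Ciart fell with corticosterone by 2.04 ± 0.37 in FMRKO mice (adjusted p = 0.00021) and by 2.61 ± 0.37 in control mice (adjusted p = 1.7e-05). On high-fat diet it fell by 1.38 ± 0.36 in FMRKO mice (adjusted p = 0.007) and by 1.56 ± 0.36 in control mice (adjusted p = 0.003). The control values without chow control 4 were -1.96 with corticosterone (adjusted p = 2.9e-05) and -0.91 on high-fat diet (adjusted p = 0.02). Without the lymph node and muscle libraries together, 3 of these 4 calls ended while the values stayed within 1.18 times of those above, at -1.81 ± 0.60 for corticosterone in FMRKO mice (adjusted p = 0.063), -1.23 ± 0.69 for high-fat diet in FMRKO mice (adjusted p = 0.321) and -1.58 ± 0.72 for high-fat diet in control mice (adjusted p = 0.154). Corticosterone against high-fat diet gave -1.05 ± 0.36 in control mice (adjusted p = 0.039), lost in 16 of 36 alternatives that include leaving out any one corticosterone control library or high-fat control 2, 3 or 4 (-0.89 to -1.07, adjusted p = 0.059 to 0.119), and -0.66 ± 0.36 in FMRKO mice (adjusted p = 0.229).

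The promoter windows of 8 of the 9 members were found in RefSeq (build GRCm38.p6), as the 250 bases before each annotated start, and were searched on both strands for the E-box CACGTG, the D-box TTANGTAA, the REV-ERB element TAGGTCA and the spaced steroid receptor element ACANNNTGT. The E-box occurs in 6.021% of 32851 such windows, the D-box in 2.061%, TAGGTCA in 2.234% and ACANNNTGT in 5.835%. Ciart held 3 E-boxes, 116, 58 and 44 bases before its start, Bhlhe41 held 1 at 153 bases and Tef held 1 in each of its annotated promoters, at 127 and 138 bases. Nfil3 held TAGGTCA 12 bases before its start, and the windows of Dbp, Hlf, Nr1d1 and Nr1d2 held none of the 4 motifs. These distances are from the RefSeq start, which can lie inside the counted span of the gene. The Nfil3 and Tef matches lie inside that span, and the Ciart and Bhlhe41 matches lie before it. Stretches of 3 members are shown, Ciart with 3 E-boxes, Bhlhe41 with 1 and Nr1d2 with no match. Only exact letters in these windows were searched, so a window without CACGTG says nothing about control from elsewhere. Capitals mark CACGTG. Each stretch is on the minus strand, written 5′ to 3′, and ends where the counted part of the gene begins. They lie at chr3:95882252-95882478, chr6:145865559-145865670 and chr14:18239128-18239356.
Ciart: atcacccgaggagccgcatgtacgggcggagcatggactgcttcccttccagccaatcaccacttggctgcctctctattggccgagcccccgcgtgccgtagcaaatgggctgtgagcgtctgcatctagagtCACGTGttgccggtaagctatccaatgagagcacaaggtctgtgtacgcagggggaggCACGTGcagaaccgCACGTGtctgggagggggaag
Bhlhe41: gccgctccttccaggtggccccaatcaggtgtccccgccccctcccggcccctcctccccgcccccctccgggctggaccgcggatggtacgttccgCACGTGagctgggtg
Nr1d2: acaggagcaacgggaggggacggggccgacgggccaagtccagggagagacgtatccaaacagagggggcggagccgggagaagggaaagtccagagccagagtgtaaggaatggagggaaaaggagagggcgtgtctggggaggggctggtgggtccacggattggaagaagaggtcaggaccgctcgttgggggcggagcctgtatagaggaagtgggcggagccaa
A match of letters is a description of the window and not a binding site, and no binding was measured.

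**Figure D2:**
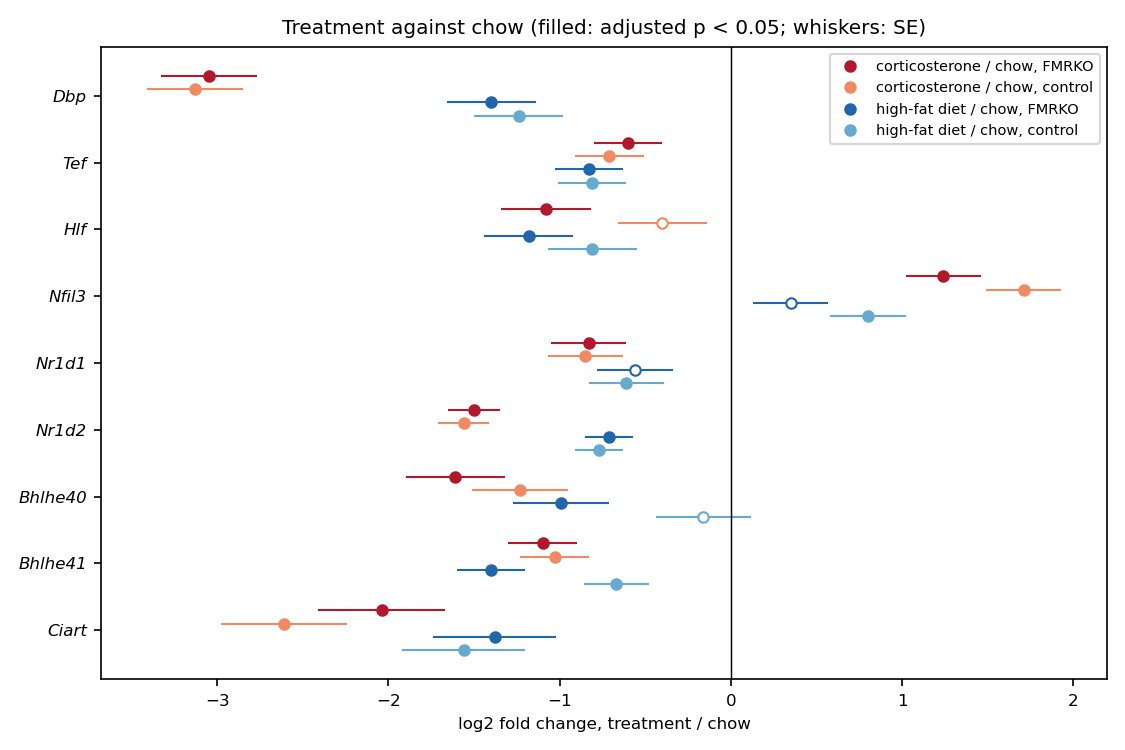
log2 fold change (horizontal axis) of each factor for corticosterone and high-fat diet over chow in FMRKO and control mice; whiskers are SE, filled points have an adjusted p under 0.05. Dbp lies farthest left with corticosterone, at -3.05 in FMRKO and -3.13 in control mice, and Nfil3 is the one factor to the right of 0.

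Set directly against each other, without chow libraries in the contrast, the treatments differed for some factors and not detectably for others. In FMRKO mice 2 members were lower and 1 was higher with corticosterone than on high-fat diet, where 8.49% of all genes were called lower and 7.27% higher. In control mice 4 were lower and 1 was higher, where 14.2% of all genes were called lower and 10.6% higher. Libraries did not overlap for 4 members lower and 1 higher in FMRKO mice, as for 12.1% and 12.9% of all genes, and for 3 lower and 2 higher in control mice, as for 14.8% and 13.1%. Dbp, Nr1d2 and Nfil3 passed in both genotypes. For Nr1d1 the values were -0.27 ± 0.22 in FMRKO mice (95% interval -0.72 to 0.18) and -0.23 ± 0.22 in control mice (-0.68 to 0.22). For Hlf they were 0.10 ± 0.26 in FMRKO mice and 0.41 ± 0.26 in control mice, where the 4 corticosterone libraries lay above the 4 high-fat libraries without passing the test (adjusted p = 0.258); with only the groups compared in the fit the control value was 0.41 ± 0.12 and passed (adjusted p = 0.035).

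No member passed in any comparison of FMRKO with control mice, so no effect of the receptor deletion on these factors was detectable at this depth and replication. By edgeR 0 of 9 were called with corticosterone, 0 on high-fat diet and 0 on chow, where 0.00507%, 0.0101% and 0.0101% of all genes were called (on chow 2 genes, and 19 without chow control 1), and 0 in the average over conditions, where 0.0355% were. DESeq2 also called 0 of 9 in each. At an unadjusted p under 0.05 there were 0 members with corticosterone, 2 on high-fat diet and 0 on chow, where 4.28%, 3.96% and 11.9% of all genes were, and 0 in the average, where 6.66% were. The largest genotype difference was Bhlhe41 on high-fat diet, with 22.9 ± 3.38 CPM in FMRKO and 35.7 ± 10.6 CPM in control libraries (SD, n = 4 each). Its 4 FMRKO libraries, at 18 to 25.1 CPM, lay below the 4 control libraries, at 27.0 to 50.7 CPM, and 0.847% of all genes showed such a gap in this direction. The log2 fold change was -0.64 ± 0.20 (95% interval -1.05 to -0.23) with an adjusted p of 0.98. Bhlhe40 gave -0.61 ± 0.28 on high-fat diet, with 23.9 ± 5.05 CPM in FMRKO and 36.4 ± 20.4 CPM in control libraries, which overlapped. The high-fat effect differed between the genotypes by -0.73 ± 0.27 for Bhlhe41 and by -0.83 ± 0.39 for Bhlhe40, neither past adjustment (adjusted p = 0.481 and 0.505). For such differences in effect, 0 members and 0% of all genes passed for either treatment; at an unadjusted p under 0.05 there were 2 members for high-fat diet (9.83% of all genes) and 0 for corticosterone (5.94%). With corticosterone, Hlf had 15.5 to 18.8 CPM in FMRKO libraries and 19.2 to 24.7 CPM in control libraries, a gap shown downward by 2.49% of all genes, at -0.34 ± 0.26 and an adjusted p of 1. For Dbp the genotype intervals were -0.55 to 0.56 with corticosterone, -0.78 to 0.30 on high-fat diet and -0.61 to 0.46 on chow, and for Nr1d2 -0.27 to 0.34, -0.27 to 0.33 and -0.33 to 0.27.

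**Figure D3:**
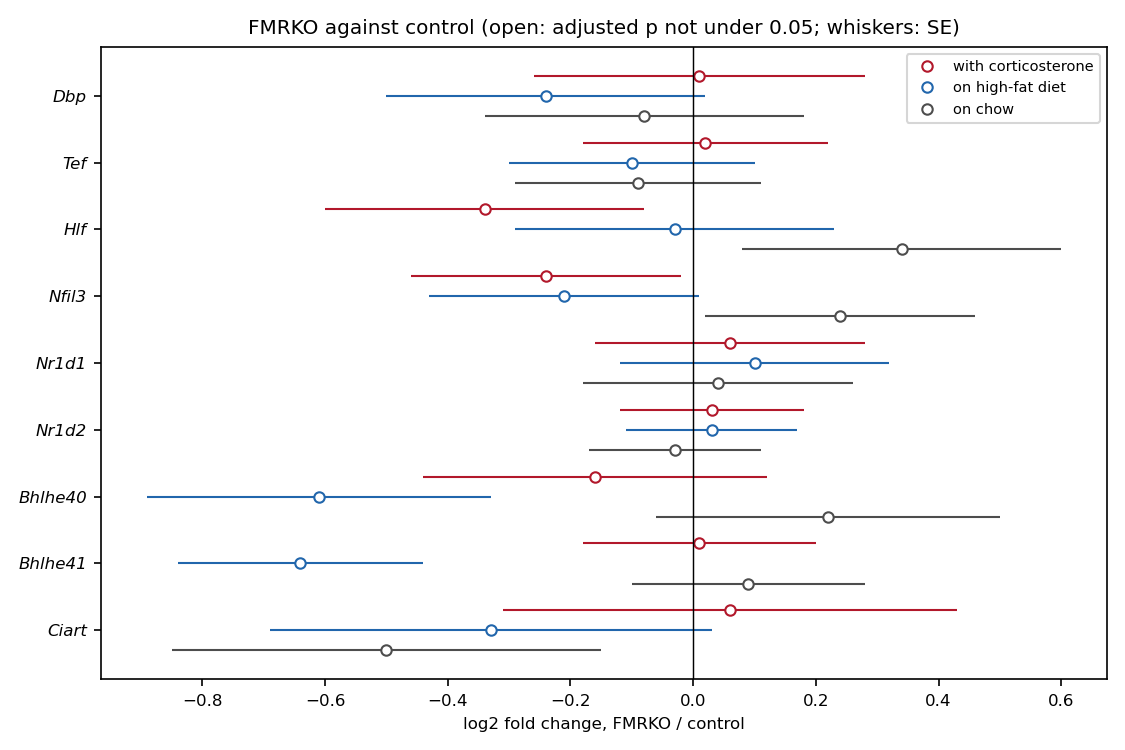
log2 fold change (horizontal axis) of each factor in FMRKO over control mice with corticosterone, on high-fat diet and on chow; whiskers are SE and all points are open because none has an adjusted p under 0.05. Most whiskers cross 0, and Bhlhe41 on high-fat diet, at -0.64, lies farthest to the left.

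Libraries of one group differed from each other in a shared way. After the group means were removed from the log2 CPM, 17 of 36 pairs of members were correlated over 24 libraries (permutation within groups, Benjamini-Hochberg adjusted over 36 pairs). How often pairs of other genes pass was not tested, so this count is not read as particular to the members. Tef and Nr1d2 had Pearson's r of 0.90 and Spearman's rho of 0.89 (permutation p = 1e-05 for both, the smallest that 100000 permutations can give), and r was 0.88 without the 2 libraries farthest from the median of Tef. Dbp and Nr1d2 had r of 0.86 (permutation p = 3e-05, adjusted 0.00054) and rho of 0.85 (permutation p = 2e-05, adjusted 0.00036), and r was 0.80 without the 2 farthest. Tef and Hlf followed with r of 0.83 and rho of 0.79, and Nr1d2 and Bhlhe41 with r of 0.81 and rho of 0.78. Nfil3 and Ciart took part in 0 of the 17. For Nfil3 and Dbp r was -0.20 and rho -0.27, and for Ciart r with the other 8 ran from -0.07 to 0.28. By Spearman's rho 14 of these 17 also passed, the exceptions being Dbp with Bhlhe40 and Nr1d1 with Tef and with Hlf. Libraries of one group share one form of title, but same-numbered high-fat FMRKO and control libraries deviated together over all genes (r = 0.20 to 0.70). What they share is not given in the labels. Replicates 1 and 4, rich in lymph node markers in both groups, had r of 0.20 and 0.70, and replicates 2 and 3 had 0.52. The part of those markers was not tested. With the same-numbered high-fat libraries permuted together, 15 of the 17 pairs passed. Without the lymph node and muscle libraries 13 libraries remained in groups of at least 2, and 0 of 36 pairs passed, while r was 0.88 for Dbp and Nr1d2, 0.81 for Tef and Nr1d2 and 0.81 for Tef and Hlf. For Nfil3 and Dbp r was -0.70 in these 13 libraries (permutation, adjusted p = 0.18), and -0.34 without the 2 farthest. The value of that pair therefore depended on which libraries were kept.

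The same deviations were set against the core loop, for 90 relations of 9 members with 10 core genes, of which 26 passed (Pearson, adjusted over 90). The share that passes with genes outside the clock was not tested here either. Same-numbered high-fat libraries were not permuted together for these 90 relations. Per3, a period gene, followed Tef with r of 0.95 and rho of 0.94 (permutation p = 1e-05 for both, the smallest possible), and r was 0.93 without the 2 farthest libraries and 0.94 in the 13 libraries without lymph node or muscle markers. Arntl ran against Nr1d2 with r of -0.80 (permutation p = 3e-05, adjusted 0.00067) and rho of -0.83 (permutation p = 1e-05, adjusted 0.0003), with -0.74 without the 2 farthest and -0.93 in the 13 libraries. Arntl also ran against Dbp with r of -0.74 and rho of -0.77 (permutation p = 0.00011 and 0.00016, adjusted 0.0012 and 0.0021), with -0.65 without the 2 farthest. Among 15120 genes compared, Per3 was the gene most like Tef and Nr1d2 (r = 0.95 and 0.88) and the second most like Dbp (0.80), after Angptl2 (0.81). The genes most like the others were Ppp6r2 for Hlf (0.88), Armc1 for Nfil3 (0.87), Bsdc1 for Nr1d1 (0.87), Slc35d2 for Bhlhe40 (0.79), Afap1l1 for Bhlhe41 (0.85) and Marc1 for Ciart (0.71). The deviation of the adipocyte list moved with several members, with r of 0.76 and rho of 0.65 for Tef, 0.74 and 0.64 for Nr1d1, 0.72 and 0.59 for Hlf, 0.63 and 0.55 for Nr1d2 and 0.63 and 0.59 for Bhlhe41. Of 27 relations of members with the adipocyte, lymph node and muscle lists, these 5 passed by Pearson's r (permutation, adjusted p = 0.026 to 0.033) and 0 by Spearman's rho (adjusted p = 0.09 to 0.11 for these 5), and r ran from -0.56 to -0.03 with the lymph node list.

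**Figure D4:**
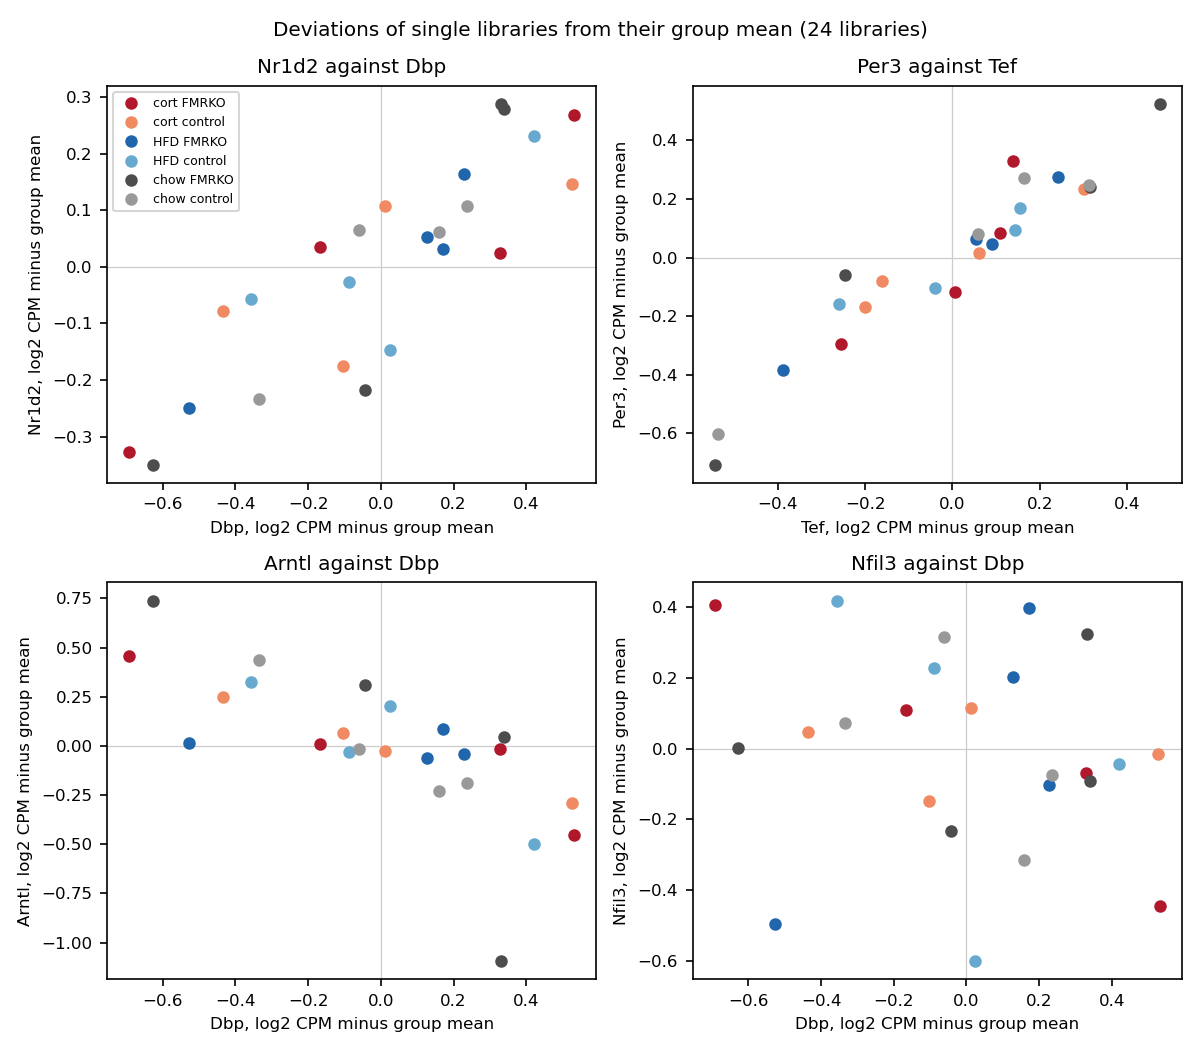
Deviation of single libraries from their group mean in log2 CPM (both axes), 24 libraries coloured by group, for 4 pairs of genes. Nr1d2 rises with Dbp (r = 0.86) and Per3 with Tef (r = 0.95), Arntl falls with Dbp (r = -0.74), and Nfil3 shows no slope against Dbp that passes (r = -0.20). Each r is over all 24 libraries.

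The core loop, taken as 10 genes, held calls in both directions with corticosterone. There 4 of 10 were higher and 2 lower than on chow in FMRKO mice, and 3 were higher and 2 lower in control mice. Their medians were 0.30 in FMRKO and 0.13 in control mice. Of all genes, 20.2% were called higher and 20.9% lower in FMRKO mice, and 20.2% and 22.7% in control mice. The lower counts lay near those shares. Arntl, the target of REV-ERB repression, rose by 1.16 ± 0.27 in FMRKO mice (adjusted p = 0.002) and by 1.94 ± 0.28 in control mice (adjusted p = 1.5e-05), and Clock rose by 0.82 ± 0.13 in FMRKO mice and by 0.76 ± 0.13 in control mice. Per3 fell by 1.46 ± 0.22 in FMRKO mice and by 1.63 ± 0.22 in control mice. On high-fat diet 1 core gene was higher and 2 were lower in FMRKO mice, and 0 were higher and 4 lower in control mice. The all-gene shares on this diet were 15.2% higher and 9.18% lower in FMRKO mice, and 15.3% and 13.9% in control mice. Per3 fell there by 1.00 ± 0.22 in FMRKO mice and by 1.10 ± 0.22 in control mice. Arntl on high-fat diet gave 0.40 ± 0.27 in FMRKO mice and 0.61 ± 0.27 in control mice, neither past the threshold. Cry1 and Cry2, the repressor partners of the PER proteins, passed in none of the 6 treatment comparisons.

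Of 10 genes known from liver and other tissues as outputs of the clock, 5 were higher and 0 lower with corticosterone than on chow in FMRKO mice, and 4 were higher and 0 lower in control mice. Of all genes, 20.2% were called higher and 20.9% lower in FMRKO mice, and 20.2% and 22.7% in control mice. Pdk4, which restrains pyruvate oxidation, rose by 1.85 ± 0.37 in FMRKO mice and by 1.95 ± 0.37 in control mice, and Tsku rose by 1.83 ± 0.28 in FMRKO mice and by 1.63 ± 0.28 in control mice. Lonrf3 rose by 2.04 ± 0.32 in FMRKO mice and by 1.26 ± 0.31 in control mice. Its chow means were low, at 2.12 CPM in FMRKO and 3.49 CPM in control libraries. Nampt, the rate-limiting enzyme of NAD salvage, rose by 0.89 ± 0.17 in FMRKO mice and by 0.67 ± 0.17 in control mice. Usp2 and Por gave 0.08 ± 0.39 and 0.09 ± 0.22 in FMRKO mice and 0.19 ± 0.38 and -0.09 ± 0.22 in control mice, with no call. On high-fat diet 2 targets were higher and 0 lower in FMRKO mice, and 3 were higher and 1 lower in control mice. The all-gene shares there were 15.2% higher and 9.18% lower in FMRKO mice, and 15.3% and 13.9% in control mice. The FMRKO count higher and the control count lower lay near those shares. Cpt1a, the gate of mitochondrial fatty acid import, rose by 1.10 ± 0.16 in FMRKO mice and by 1.14 ± 0.16 in control mice. The 1 lower target was Por, at -0.61 ± 0.22 in control mice (edgeR's test, adjusted p = 0.041). Of 7 clock kinases, ligases and related factors, 1 was higher and 2 were lower with corticosterone in FMRKO mice, and 2 were higher and 3 lower in control mice. The largest of these was Timeless, at -0.90 ± 0.25 in FMRKO mice and -1.14 ± 0.25 in control mice. For this list the FMRKO counts lay near the all-gene shares of 20.2% higher and 20.9% lower. In control mice those shares were 20.2% and 22.7%. Csnk1d, whose casein kinase phosphorylates the PER proteins, fell by 0.21 ± 0.06 with corticosterone and by 0.22 ± 0.06 on high-fat diet in control mice (adjusted p = 0.006 for both), and its FMRKO values were -0.05 ± 0.06 and -0.05 ± 0.06.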

How the data were processed

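RNA-seq counts of reads per gene were used as the authors deposited them, for 24 libraries in 6 groups of 4. Per the submitters' processing notes the tools were STAR 2.5.1a and featureCounts 1.4.6p-5 of Subread, on GRCm38; the sources used here do not give strand use or annotation release. The deposited CPM and RPKM columns of the authors were recomputed from the counts, differed by less than rounding and were not used further.

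Symbols came from GENCODE M21 (97.3% of 41388 IDs). One model over all 24 libraries with a mean per group was fitted by edgeR 4.0.16 (quasi-likelihood, TMM, filterByExpr with a minimum count of 10, 19717 genes), two-sided, with Benjamini-Hochberg adjustment over all genes at 0.05. The biological coefficient of variation was 33.7%. The test was checked on simulated data. Plotted levels are TMM-normalised CPM, a prior count of 1 was used on the log2 scale, and promoter windows are from RefSeq.

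The 9 members, the gene lists and the alternatives were chosen with earlier results of these data known. All 9 were named in every comparison, other genes only from those lists or as the genes most like a member (mean of at least 1 CPM). Replicate numbers paired the libraries only for FMRKO against control on high-fat diet, where same-numbered libraries deviated together (r = 0.20 to 0.70 over 4 pairs). Alternatives were RLE and library-total scaling, other filters, DESeq2 1.42.0, a robust fit, fits of the compared groups alone, marker covariates, a replicate block, and leaving out single libraries or those rich in lymph node or muscle transcripts. One gene of the core loop list is counted in that list but not reported here.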

Additional observations from a re-analysis of the deposited data

Results flagged for a closer look

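In 4 of 54 groups of 4 libraries checked, the gap between one library and the nearest other took up most of the group's range (Dixon's test at 95%), where chance gives about 1 in 20. High-fat FMRKO 4, a library rich in lymph node transcripts, had 19.3 CPM of Dbp, below 30.4 to 32.5 CPM in the other 3. Chow control 2 had 82.9 CPM of Nr1d2, below 102 to 105 CPM in the others. Chow FMRKO 5, the library richest in muscle transcripts, had 8.16 CPM of Ciart, above 4.20 to 4.71 CPM. Chow control 4 had 16.0 CPM of Ciart, above 4.53 to 5.20 CPM in the others, and its lymph node list summed to 771 CPM with a mean log2(CPM + 1) of 2.10. The part of these markers in the values was not tested.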

How the results depend on the processing

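Of 40 calls of a member in a treatment comparison, 26 held under every alternative run. Of 3879 recomputed fold changes 0 reversed a call, 55 lost one and 28 gained one. The 8 members called on high-fat diet against chow in control mice became 5 with only the compared groups in the fit, 5 without the lymph node libraries, 3 with the muscle libraries left out too, a setting added after the data were seen, and 6 to 9 when single libraries were left out. The 5 called for corticosterone against high-fat diet in control mice became 3 without the muscle libraries, 2 without both kinds and 3 to 5 without single libraries. The 17 correlated pairs became 0 without both kinds and 12 to 16 without single libraries, and 15 with same-numbered high-fat libraries permuted together, also added after the data were seen. The first of these falls goes with fewer libraries in the fit; the causes were not tested.

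With the replicate number as a block, members called were 8 and 8 with corticosterone against chow in FMRKO and control mice, 7 and 7 on high-fat diet against chow, 3 and 4 for corticosterone against high-fat diet and 0 in each comparison of genotypes. The block ended 3 calls: Tef with corticosterone in FMRKO mice (-0.48, adjusted p = 0.093), Hlf on high-fat diet in control mice (-0.73, adjusted p = 0.076) and Ciart between the treatments in control mice (-1.02, adjusted p = 0.067). The numbers did not pair the libraries of those comparisons, with correlations of same-numbered deviations from -0.31 to 0.29. For FMRKO against control on high-fat diet, where they did, the block called 6 genes in place of 2 and no member.

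Counts over all genes also moved by over 1.5 times. With only the compared groups, the calls became 3458 of 5758 on high-fat diet in control mice and 3202 of 4813 in FMRKO mice. Without lymph node and muscle libraries they became 3836 and 1734 for these, 2892 of 8102 with corticosterone in FMRKO mice and 1173 of 4904 between treatments in control mice, where covariates gave 3099 and leaving out the lymph node libraries 3200. DESeq2 called 6, 12 and 89 genes for FMRKO against control with corticosterone, on high-fat diet and on chow, against 1, 2 and 2 by edgeR, 35 against 7 in the average, and 4 and 13 against 0 and 0 for the differences of the corticosterone and high-fat effects between genotypes. The edgeR counts for FMRKO against control with corticosterone (1) became 3 with at least 1 CPM in 4 libraries and 2 with only the compared groups, 3 without corticosterone control 1, 3 without chow control 2 and 2 without chow control 4. Those on high-fat diet (2) became 1 with only the compared groups, 1 without the lymph node libraries and 4 without both kinds. On chow (2) they became 1 with only the compared groups, the block or no lymph node libraries, and 19 without chow control 1. The average (7) gave 4 without the lymph node libraries and 1 without both kinds, which gave 1 and 2 for the differences in the corticosterone and high-fat effects. Counts were lowest for Ciart and Nfil3, with as few as 22 and 69 in a library.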
